A study of Mus musculus with 8 samples.

Results

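Bst1 and the enzymes and receptors of extracellular purines were followed in B-1a cells with and without PTIP. The genes were taken by symbol from the platform annotation: Bst1, Cd38, Nt5e, Entpd1, Enpp1, Ada, Adora2a, Adora2b, P2rx4 and P2rx7. Of these 10 symbols, 6 (Bst1, Entpd1, Nt5e, Ada, P2rx4 and P2rx7) had a named probe set, out of 22180 genes measured, and the other 4 (Cd38, Enpp1, Adora2a and Adora2b) were not analysed here. Each of the 6 had 1 named probe set, so that the rule of taking the brightest probe set changed nothing. The genes were chosen with the difference between KO and control in view. Their differences are therefore given as a description, without p-values.

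B-1a cells, B lymphocytes that renew themselves in the body cavities and make natural IgM, were sorted by flow cytometry from peritoneal lavage of 5-week-old mice, and their RNA was measured on 8 Affymetrix arrays. KO mice were CD19cre/+PTIPflox/flox and control mice CD19cre/+PTIP+/+, so that both groups carried the Cre allele, which is expressed in B lineage cells, and only KO mice had floxed copies of Paxip1, the gene for PTIP. Per the labels, 29 KO and 22 control mice made up 4 pools of each genotype, with 1 array per pool. PTIP belongs to the MLL3 and MLL4 complexes, which methylate lysine 4 of histone H3, and the comparison asks which transcripts depend on it. Values are log2 RMA values, on which a difference of 1 is a doubling. They have no absolute zero and cannot be compared between genes.

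Cells release ATP and NAD, and enzymes on the cell surface convert both. CD39, the product of Entpd1, and ENPP1 break down ATP, CD73, the product of Nt5e, turns the resulting AMP into adenosine, and adenosine deaminase, the product of Ada, turns adenosine into inosine. ATP opens the P2X channels, among them those encoded by P2rx4 and P2rx7, whereas adenosine acts through receptors that raise or lower cyclic AMP. BST1 (CD157) and CD38 are related ectoenzymes that use NAD and can form cyclic ADP-ribose, a calcium-releasing messenger. B cells that carry CD39 and CD73 are known to make adenosine, which dampens T cell responses.

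Paxip1 was 4.38 ± 0.54 in KO and 7.05 ± 0.13 in control (SD, n = 4 pools each), and its second probe set differed by -3.24. No source used here gives the place of its probes relative to the deleted part. Of 7 measured B cell and B-1a markers, Cd5 and the B cell receptor chains Cd79a and Cd79b among them, none was called different. The sialoglycoprotein gene Spn (CD43), also of this list and known from B-1 cells, was at 6.19 ± 0.37 in KO and 6.71 ± 0.11 in control (SD, n = 4), without overlap and not called. The list mean lay between 9.88 and 9.95 in KO and between 9.97 and 10.1 in control. For 13 measured T cell markers KO pools 1 to 4 had means of 7.47, 7.22, 5.38 and 5.98, while control pools 1 to 4 had means of 5.73, 5.80, 5.04 and 4.77. Of these 13, 12 had positive differences and 0 were called. The largest differences were those of Il7r (2.75) and Cd3e (2.21), and the groups of Gata3 (0.58) did not overlap. Cd2, also of this list and also expressed by B cells, had a negative difference (-0.17). The mean of 10 NK markers lay between 4.52 and 5.82 in KO and between 3.69 and 4.61 in control. All 10 had positive differences and 2 were called higher. Klrk1 (2.02) was not called, though its groups did not overlap. The mean of 10 macrophage markers lay between 4.65 and 5.04 in KO and between 4.74 and 5.40 in control. The mast cell marker mean ran from 3.204 to 3.61 in KO and from 3.02 to 4.11 in control. Control pool 1 gave the 4.11, with the other control pools at 3.25 or below, and also the macrophage mean of 5.40. The plasma cell marker mean ran from 5.28 to 5.37 in KO and from 5.07 to 5.18 in control. Of its 6 genes Jchain was called higher (1.49). Among those not called, groups did not overlap for Irf4 (-0.34), Xbp1 (-0.35) and, in the other direction, Prdm1 (0.19). A bulk array cannot tell fewer cells of a type from less RNA per cell.

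The 2 genes that stood apart between genotypes went in opposite directions: Bst1 was higher in KO and P2rx4 was lower. In limma's fit over all genes (Benjamini-Hochberg adjusted p under 0.05, here "called"), 1 of the 6 genes was called higher and 1 lower, beside 1.49% of all genes called higher and 2.1% called lower, or 3.59% in all. The groups did not overlap in the same 2 genes, as in 10.5% of all genes. The median difference of the 6 genes was -0.04, against 0.02 over all genes. Nothing is read from these counts, since the genes were picked on this contrast.

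**Figure D1:**
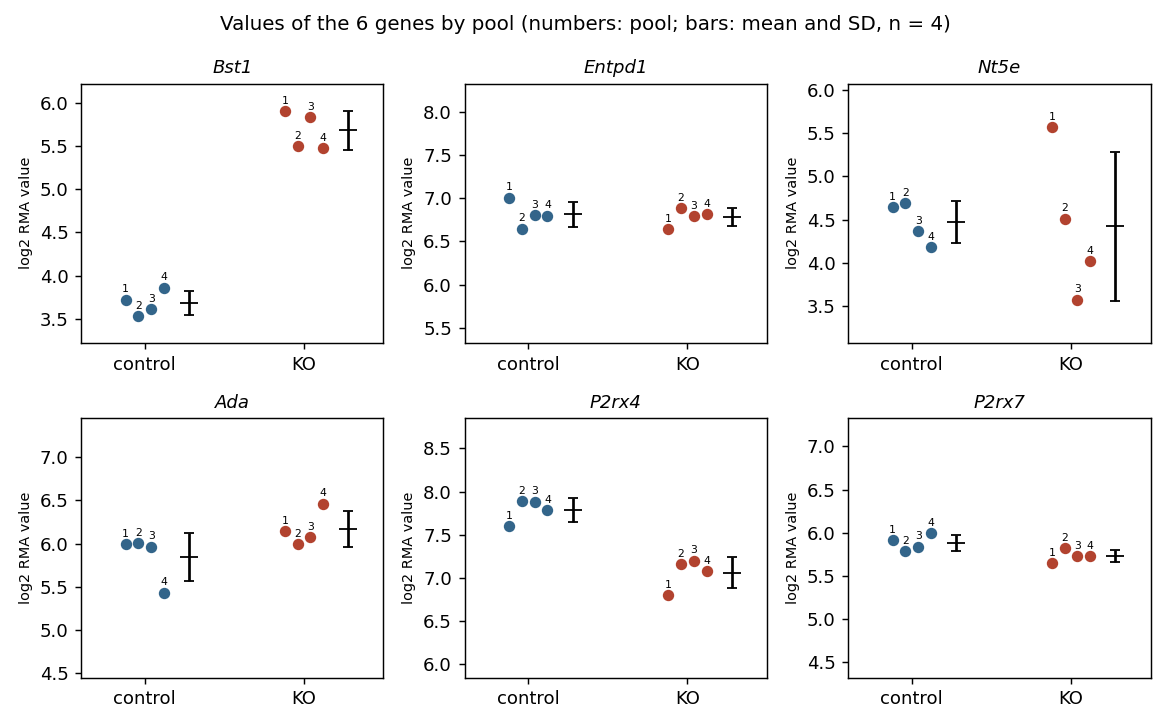
Log2 RMA value (vertical axis, 3 log2 units in each panel) of the 6 genes in each of 4 control (blue) and 4 KO (red) pools, numbered by pool, with the mean and SD of each group at its right. KO pools lie above all control pools for Bst1 and below all of them for P2rx4, overlap them for the other 4 genes, and spread most for Nt5e.

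The NAD ectoenzyme Bst1 was at 5.91, 5.50, 5.83 and 5.48 in KO pools 1 to 4 and at 3.72, 3.54, 3.61 and 3.86 in control pools 1 to 4. All KO pools were above all control pools, and a gap of 1.62 separated the lowest KO pool from the highest control pool. The groups were tight on either side of that gap, with a range of 0.43 in KO and 0.32 in control. The difference was 1.998 (SE 0.12), a 3.99-fold higher value, which exceeded in size the difference of 99.9% of all genes. Control values were near the array medians, which lay between 3.68 and 3.74. BST1 is known from bone marrow stroma and B cell precursors. Without KO pools 1 and 2 the difference was 1.97 (SE 0.14), and with the T cell marker mean added to the fit as a covariate 2.03 (SE 0.16). Beyond these fits the part of the T cell markers in the difference was not tested.

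The genes that followed Bst1 most closely over the 8 arrays, by the root mean square distance between values centred on each gene's mean, were the cytokine receptor Il9r (distance 0.24), Dennd3 (0.29), the annexin Anxa1 (0.33) and Jchain (0.33), the joining chain of IgM and IgA. Their KO minus control differences were 1.96, 1.54, 1.93 and 1.49. The likeness is over 8 arrays in 2 groups and rests largely on the shared difference between groups.

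Bst1 lies on chromosome 5, as Paxip1 does, directly beside its relative Cd38 with 0 genes of the RefSeq table (assembly GRCm38.p6) between them. Only KO mice carried the floxed copies of Paxip1, so DNA linked to them on chromosome 5 goes with genotype here. Its part in the difference of Bst1, or of P2rx4 on the same chromosome, was not tested. Between Bst1 and Paxip1 lie 321 genes of that table, 161 of them measured. Of those 161 genes 1 was called higher and 5 lower, or 3.73%, next to 3.59% of all genes. Of the 10 measured genes on each side of the Bst1 and Cd38 pair, 20 in all, 0 were called and 2 had an unadjusted limma p under 0.05; over the alternatives, between 0 and 1 was called in either direction. Their differences ran from -0.58 to 0.45, with a median of 0.05. The nearest measured gene toward Paxip1, Fbxl5, a subunit of an iron-sensing ubiquitin ligase, was at 6.81 ± 0.06 in KO and 6.85 ± 0.22 in control (SD, n = 4). The nearest on the far side of Cd38, the pseudogene Gm5292, was at 5.39 ± 0.31 and 5.97 ± 0.20. Its difference of -0.58 (SE 0.15, limma, adjusted p = 0.0670) was opposite in sign to that of Bst1 and was called in 2 of 20 alternatives.

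**Figure D2:**
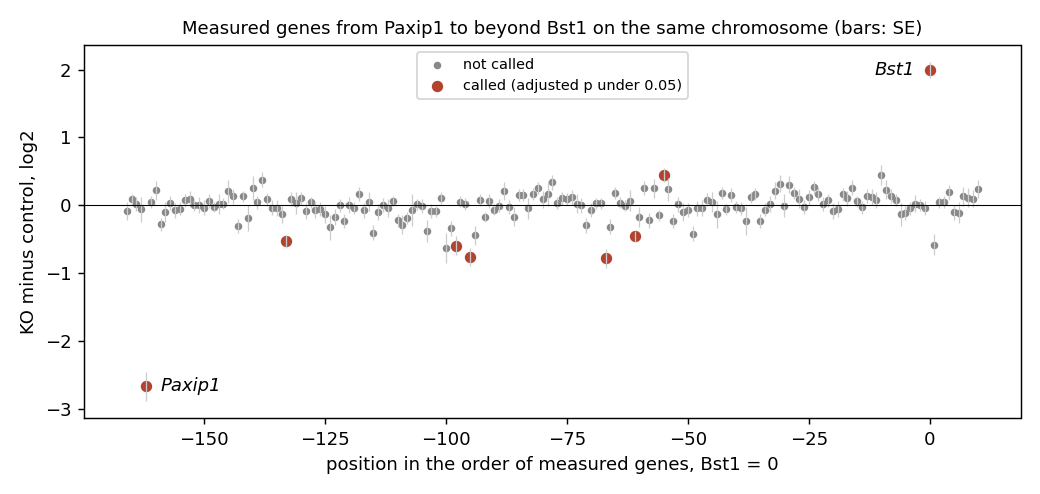
KO minus control difference (log2, vertical axis; bars are the SE) of each measured gene from just before Paxip1 to the tenth measured gene beyond Bst1, in chromosomal order with Bst1 at 0 (horizontal axis). Bst1 is at 1.998, and the differences of its neighbours lie between -0.58 and 0.45. Called genes are red.

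The enzymes that turn ATP into adenosine were not called. Entpd1, for CD39, was at 6.64, 6.88, 6.80 and 6.81 in KO pools 1 to 4 and at 7.01, 6.65, 6.80 and 6.80 in control pools 1 to 4. The pools of the genotypes were interleaved within 0.36 of each other. The difference was -0.03 (SE 0.10), with a 95% interval of the fit from -0.24 to 0.18.

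Nt5e, for CD73, was the most variable of the set. It was at 5.57, 4.51, 3.57 and 4.02 in KO pools 1 to 4 and at 4.65, 4.69, 4.36 and 4.18 in control pools 1 to 4. The KO pools spanned 1.998 and enclosed the control pools, which spanned 0.51. Its pooled SD of 0.63 was larger than that of 99.6% of all genes. The difference was -0.05 (SE 0.34), with a 95% interval from -0.79 to 0.69, so that changes of over 1.5-fold either way lie within it. T cells also carry CD73. In both genotypes the order of the pools in Nt5e was that of the T cell marker mean: pools 1, 2, 4 and 3 in KO and pools 2, 1, 3 and 4 in control, from high to low. The NK marker mean had the same order, so the order is not particular to the T cell markers. It was at 5.82, 5.52, 4.52 and 4.93 in KO pools 1 to 4. In control pools 1 to 4 it was at 4.41, 4.61, 4.08 and 3.69. KO pools 3 and 4, with T cell marker means of 5.38 and 5.98, were below all control pools in Nt5e. Without KO pools 1 and 2 the difference was -0.67 (SE 0.18), and with the T cell marker mean in the fit -0.90 (SE 0.22); the gene was called in neither fit, nor in any of the other 18 alternatives. Without KO pool 1 alone it was -0.43, and without KO pool 3 it was 0.23. The source of the Nt5e signal in each pool was not tested.

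**Figure D3:**
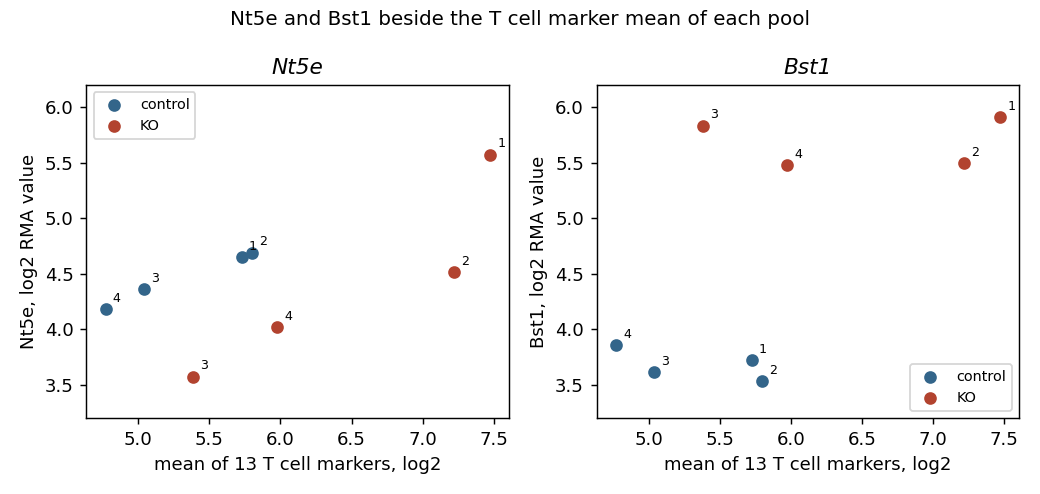
Log2 value of Nt5e (left) and Bst1 (right) against the mean log2 value of 13 T cell markers in each of 4 control (blue) and 4 KO (red) pools, numbered by pool. Nt5e runs in the same order as the marker mean within each genotype, from 3.57 to 5.57 in KO; Bst1 lies between 5.48 and 5.91 in KO and between 3.54 and 3.86 in control. The NK marker mean, not drawn, had the same order of pools within each genotype as the T cell marker mean. The part of the T cell or NK markers in either gene was not tested from these points.

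Ada, for adenosine deaminase, whose loss in people and mice depletes lymphocytes, was at 6.15, 5.997, 6.07 and 6.46 in KO pools 1 to 4 and at 5.99, 6.004, 5.97 and 5.43 in control pools 1 to 4. The groups overlapped by less than 0.01, and control pool 4 lay well below the others. The difference was 0.32 (SE 0.15, 95% interval 0.00095 to 0.64) and was not called. Without control pool 4 it was 0.18 (SE 0.12).

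Of the ATP-gated channels, P2rx4 fell and P2rx7 was not called. P2rx4, for a channel found on the surface and in lysosomes, was at 6.81, 7.16, 7.20 and 7.08 in KO pools 1 to 4 and at 7.60, 7.89, 7.88 and 7.79 in control pools 1 to 4. All KO pools lay below all control pools, with 0.40 between the nearest. The difference was -0.73 (SE 0.11), a 1.66-fold lower value, and exceeded in size that of 98.5% of all genes. The gene was called in 19 of 20 alternatives. These refit the arrays on which it was picked, so nothing is read from this count. With the T cell marker mean in the fit the difference was -0.60 (SE 0.14) and the gene was not called. Without KO pools 1 and 2, the 2 with the highest marker means, the difference was -0.65 (SE 0.12) and the gene was called. Beyond these fits the part of the T cell markers in the difference was not tested.

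P2rx7, for the channel that needs much ATP to open and can lead to cell death, was at 5.65, 5.82, 5.73 and 5.73 in KO pools 1 to 4 and at 5.92, 5.79, 5.84 and 5.9999 in control pools 1 to 4. The groups overlapped, since KO pool 2 was above control pool 2. The difference was -0.15 (SE 0.08), with a 95% interval from -0.34 to 0.03. Its pooled SD of 0.08 was larger than that of only 10.2% of all genes.

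**Figure D4:**
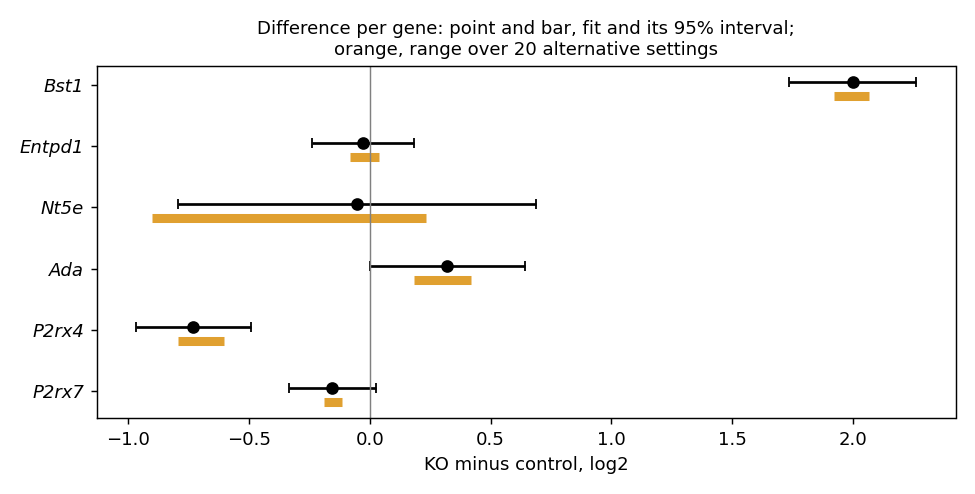
KO minus control difference of each of the 6 genes on the log2 scale (horizontal axis), as the fitted value with its 95% interval (black) and as the range over 20 alternative settings (orange). Bst1 stays between 1.92 and 2.06 and P2rx4 between -0.79 and -0.60, while the range of Nt5e, -0.90 to 0.23, crosses 0.

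P2rx7 and P2rx4 lie in the same orientation on chromosome 5 with 2 genes of the RefSeq table between them, so the channel gene that fell and the one that was not called are near neighbours. To show these starts side by side, the 250 bases before the RefSeq start of each are printed 5′ to 3′ (RefSeq, GRCm38.p6, plus strand), with CG dinucleotides in capitals. P2rx7 has a second entry, and Bst1 has none.
P2rx4, chr5:122707294-122707543: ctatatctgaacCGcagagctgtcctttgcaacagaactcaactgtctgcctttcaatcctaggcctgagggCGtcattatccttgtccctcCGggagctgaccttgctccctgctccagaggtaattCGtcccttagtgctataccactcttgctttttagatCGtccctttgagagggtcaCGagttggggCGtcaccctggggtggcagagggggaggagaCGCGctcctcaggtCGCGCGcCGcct
P2rx7, chr5:122643677-122643926: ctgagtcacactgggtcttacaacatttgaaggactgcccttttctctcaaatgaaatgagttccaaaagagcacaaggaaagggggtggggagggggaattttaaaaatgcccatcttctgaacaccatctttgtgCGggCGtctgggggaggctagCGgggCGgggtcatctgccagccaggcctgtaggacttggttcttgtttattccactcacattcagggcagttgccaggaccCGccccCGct
The P2rx4 window holds 13 CG dinucleotides, a number reached by 31.5% of the 32851 windows of this length in the table, and the P2rx7 window 6, reached by 50.4%. The second P2rx7 entry holds 4. The other genes with an entry were Nt5e with 21, Ada with 14 and Entpd1 with 18 and 8 in its 2 entries. The letters GGGCGG, the GC box bound by SP1 family factors, searched on both strands, occur 2 times in the printed P2rx7 window, 1 on each strand, 2 times in that of Nt5e and 1 time in that of Ada. They do not occur in those of P2rx4 and Entpd1 or in the second of P2rx7, and 32.7% of all windows hold them. Each such match includes 1 CG. These are letters in a window and say nothing about binding in these cells.

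The genes that followed P2rx4 most closely, found by the same measure after its values were seen, were Acap1 (distance 0.08), the phospholipase D family member Pld4 (0.10), the insulin receptor gene Insr (0.10) and the kinase Cdk16 (0.10). They differed by -0.61, -0.67, -0.65 and -0.64. As for Bst1, the likeness rests largely on the shared difference between groups.

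The other genes of these pathways were described by lists written from textbook knowledge, with 109 of 119 symbols measured. Of the 109, 2 were called higher and 5 lower, or 6.42% beside 3.59% of all genes, with a median difference of 0.00095. Nothing is read from this share, since the lists were chosen with earlier results of these data known. The calls fell in 3 of 7 lists, namely transport and release, salvage, and cyclic AMP signalling. Among 15 measured other ectonucleotidases and ecto-ADP-ribosyltransferases limma called 0, with 4 at an unadjusted p under 0.05. The smallest p there belonged to the endoplasmic reticulum diphosphatase Entpd5 (6.79 ± 0.05 in KO and 6.47 ± 0.13 in control, SD, n = 4, adjusted p = 0.0749) and to Dpp4 (8.85 ± 0.04 and 8.52 ± 0.16, adjusted p = 0.0779), for CD26, a surface peptidase that binds adenosine deaminase in people. In 1 and 3 of 20 alternatives respectively they were called.

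Among 14 other purinergic receptors limma called 0, and 0 had an unadjusted p under 0.05. The receptors for ADP P2ry1 and P2ry13 had the smallest p, with differences of 0.25 (SE 0.14, adjusted p = 0.456) and -0.26 (SE 0.15, adjusted p = 0.467). P2rx4, a gene picked on this contrast, was thus the only called gene among the purinergic receptors measured, 16 with P2rx7 and P2rx4 counted. Most of the 14 listed receptors were dim, below the array medians of 3.68 to 3.74 in both groups, such as P2rx3 at 2.76 in each. Whether P2rx4 differs from the other receptors in its change was not tested.

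Of 14 genes of nucleoside transport and ATP release 1 was called higher and 1 lower. Slc17a9, for the vesicular nucleotide transporter that loads ATP into vesicles, was at 5.65, 5.11, 5.37 and 4.66 in KO pools 1 to 4 and at 6.30, 6.83, 6.32 and 6.54 in control pools 1 to 4. All KO pools were below all control pools, and the difference was -1.30 (SE 0.19, limma, adjusted p = 0.00377), a 2.46-fold lower value. The call held in 19 of 20 alternatives and was lost without moderation of the variance (adjusted p = 0.0768). Panx1, for a channel through which ATP leaves cells, was at 7.81, 7.77, 7.48 and 7.59 in KO and at 7.26, 7.21, 7.35 and 7.21 in control. It rose by 0.41 (SE 0.09, limma, adjusted p = 0.0379), and was highest in the KO pools with the highest T cell marker means, 1 and 2. These 2 pools also had the highest NK marker means. With the T cell marker means in the fit Panx1 differed by 0.27 (limma, adjusted p = 0.334). Its call was lost in 12 of 20 alternatives, among them the omission of KO pool 1, 2 or 4 or of any control pool. The part of the T cell markers in this difference was not tested further.

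Of 18 genes of purine salvage and breakdown, Dck was called higher and Nt5c2 lower. Dck, for deoxycytidine kinase, which phosphorylates salvaged deoxynucleosides, was at 6.91, 6.97, 7.09 and 7.64 in KO pools 1 to 4 and at 6.04, 5.78, 6.05 and 5.97 in control pools 1 to 4. Every KO pool was above every control pool, and the difference of 1.19 (SE 0.15, limma, adjusted p = 0.00142), a 2.28-fold higher value, was called in 20 of 20 alternatives, with adjusted p up to 0.0453. Nt5c2, for a cytosolic nucleotidase, fell by 0.34 (SE 0.08, limma, adjusted p = 0.0330), from 6.33 ± 0.05 to 5.98 ± 0.06. That call was lost in 12 of 20 alternatives (adjusted p up to 0.262), among them the omission of KO pool 1, 2 or 3 or of any control pool.

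Limma called 0 of 20 genes of NAD synthesis and use, the substrate side of BST1, with 2 at an unadjusted p under 0.05. Nmrk1, a nicotinamide riboside kinase, was at 5.23 ± 0.20 in KO, against 5.81 ± 0.33 for control (adjusted p = 0.0793), and Sirt1, an NAD-dependent deacetylase, at 7.13 ± 0.03 and 6.94 ± 0.03 (adjusted p = 0.241; SD, n = 4). Sirt1 was called in 1 of 20 alternatives. The list of calcium channels and partners of cyclic ADP-ribose, ADP-ribose and NAADP signalling also held the inositol trisphosphate receptor genes Itpr2 and Itpr3. Of its 10 measured genes, 0 were called and 0 had an unadjusted p under 0.05. Their differences lay between -0.06 and 0.07. The 2 with the smallest p, the ryanodine receptor gene Ryr3 and the inositol trisphosphate receptor gene Itpr2, each differed by 0.07 (limma, adjusted p = 0.775 and 0.790), and Ryr3 was dim in both groups, at 2.66 and 2.59.

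In the cyclic AMP list, through which adenosine receptors signal, 3 of 18 genes were called lower and 0 higher, or 16.7% beside 3.59% of all genes. Differences of either sign occurred, with 11 positive, 7 negative and a median of 0.04. Prkar2b, for a regulatory subunit of protein kinase A, was at 7.53, 7.73, 7.85 and 7.88 in KO pools 1 to 4 and at 8.74, 8.88, 8.80 and 8.75 in control pools 1 to 4, a difference of -1.05 (SE 0.09, limma, adjusted p = 0.000155). Pde3b, a phosphodiesterase that breaks down cyclic AMP, was at 7.004, 6.94, 6.68 and 6.76 in KO and at 7.53, 7.501, 7.56 and 7.57 in control, a difference of -0.69 (SE 0.09, adjusted p = 0.00182). Neither gene's groups overlapped, and both were called in 20 of 20 alternatives. Pde7a, another cyclic AMP phosphodiesterase, fell by 0.43 (SE 0.10, limma, adjusted p = 0.0475), a call lost in 15 of 20 alternatives (adjusted p up to 0.199), among them the omission of any pool but control pool 2. With the T cell marker mean in the fit the differences of Slc17a9, Dck, Prkar2b and Pde3b were -1.47, 1.39, -0.93 and -0.82, all still called.

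**Figure D5:**
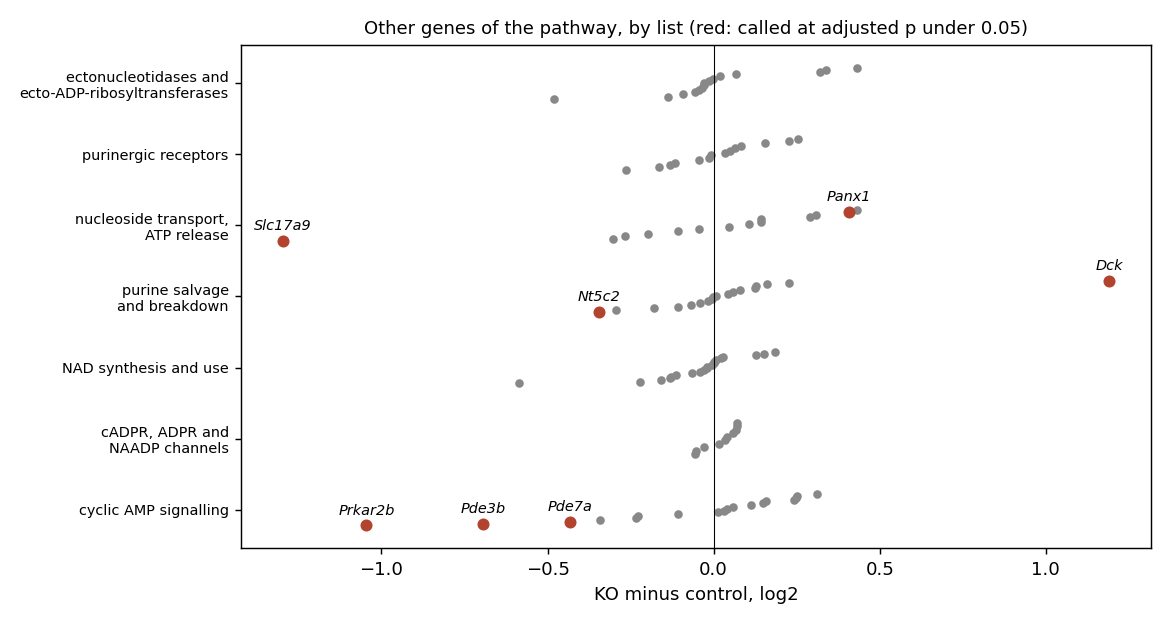
KO minus control difference on the log2 scale (horizontal axis) of each of 109 measured pathway genes, in 7 lists (vertical axis); each point is a gene, and called genes are red and named. Calls lie in 3 lists, with Slc17a9 lowest at -1.30 and Dck highest at 1.19. The list of cyclic ADP-ribose, ADP-ribose and NAADP channels, which also holds inositol trisphosphate receptors, lies between -0.06 and 0.07.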

How the data were processed

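RNA of 8 pools was hybridised to Affymetrix arrays, 1 per pool. The deposited values are log2 values of 41345 probe sets that the authors made with RMA and R 3.2.2, per the submitters' processing notes; RMA corrects background, gives the arrays a shared distribution and summarises probes. No source used here gives the genome build or the probe set definitions of that step; genes were named through the platform annotation. Arrays give no depth, and their number limits the precision.

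Of 25335 annotated probe sets, 23521 had 1 symbol, 1814 carried several and stayed unnamed, and 16010 of the table were not listed. The brightest probe set per gene was kept, leaving 22180 genes. KO was compared with control in limma 3.58.1 (R 4.3.3; lmFit, eBayes, two-sided, Benjamini-Hochberg over all genes, threshold 0.05). The fit was tested on simulated arrays of 22180 genes, where it recovered 58% of genes changed 1.5-fold and 88% of those changed 2-fold. The changed genes were all above the median level and the noise was independent between genes. These shares therefore do not cover dim genes or signal shared between genes. Members and lists were chosen with earlier results of these data known. Named were the members, Paxip1, the nearest and any called neighbours of Bst1 and Cd38, up to 3 called genes per list (2 with the smallest p where 0 were called) and the 4 genes most like Bst1.

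The main fit did not pair pools by replicate number. Deviations of same-numbered pools correlated at 0.11, 0.04, 0.04 and 0.04 across genes. KO pools 1 and 2 matched the control pool of the same number best, whereas KO pools 3 and 4 best matched control pools 4 and 3. Whether same-numbered pools shared a batch was not tested. Nothing says that the mice of different pools were kept apart. The p-values test a mean difference against the spread between these pools, moderated over all genes, and speak for these pools. Alternatives changed probe set, filter, scaling, variance prior, weights, block, covariate, threshold and pools.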

Additional observations from a re-analysis of the deposited data

Results flagged for a closer look

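In 4 of 48 groups of 4 pools examined (the 6 genes, Paxip1 and the named pathway and neighbouring genes, in each genotype), 1 pool stood apart from the other 3 by Dixon's test; chance gives about 1 in 20. Ada was at 5.43 in control pool 4, against 5.97 for the nearest control pool. P2ry1 was at 3.44 in control pool 4, against 2.87 for the nearest, where the probe set is dim. Nmrk1 was at 6.31 in control pool 1, against 5.70. Pde7a was at 6.93 in control pool 2, against 7.28.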

How the results depend on the processing

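Of the 20 alternatives, 7 leave the differences of the 6 genes as they are by construction, the block for the replicate number among them, since each gene has 1 probe set and the groups are equal in size; in the other 13 no difference of Bst1, Ada, P2rx4 or P2rx7 changed sign. Leaving out 1 pool at a time gave differences of 1.92 to 2.06 for Bst1, -0.79 to -0.64 for P2rx4, 0.18 to 0.38 for Ada, -0.19 to -0.12 for P2rx7, -0.08 to 0.04 for Entpd1 and -0.43 to 0.23 for Nt5e. Nt5e moved by more than its SD only when the T cell marker level was a covariate (-0.90). The counts over all genes, 331 higher and 466 lower, were 127 and 176 without moderation of the variance, 150 and 159 with that covariate, 137 and 183 omitting KO pools 1 and 2, and 123 and 188 at an adjusted p under 0.01; without 1 pool they ran from 196 to 296 and from 274 to 462. They were lowered by over 1.5 times for the higher genes when KO pool 2 or 4 was omitted, or control pool 2, 3 or 4, and for the lower genes when KO pool 2, control pool 3 or control pool 4 was. Of the 109 pathway genes, 2 were higher and 5 lower; both counts fell, to 1 and 3, with all probe sets in the fit, omitting KO pools 1 and 2, at an adjusted p under 0.01, and with the replicate number as a block. The lower count was also 3 after centring on array medians, without moderation and with the covariate, and the higher count 4 when only genes above the median level were tested. Without 1 pool they ran from 1 to 2 and from 3 to 4. Of the 20 genes beside Bst1 and Cd38, 1 was called lower with only genes above the median level and with an intensity trend and robust prior; without 1 pool between 0 and 1 was called higher and 0 lower. With 4 pools a group the precision is limited by their number. Beyond the smaller number of pools or genes in some alternatives, the cause of these changes was not tested.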
